A study of Homo sapiens with 7 samples.

Results

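The 42 genes described here encode nuclear receptors, and they were taken as the rows of the HepG2 expression table that hold 1 of 42 listed symbols. The rule uses no measured value, but the list was made with earlier results of these data known. All 42 were found among 21913 gene symbols on chromosomes 1 to 22, X and Y. HepG2 is a human liver cancer cell line, here without treatment as far as the labels say. The 7 samples, 1 per assay, were a native MNase-Seq library that maps nucleosomes, ChIP-Seq libraries of 3 activation marks (H3K4me3, H3K9ac, H3K27ac) and 2 repressive ones (H3K27me3, H3K9me3), and an RNA-Seq sample. With 1 sample per assay no difference could be tested, so no P value is given, and the counts below are set beside the same counts over all 21913 genes.

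Nuclear receptors are transcription factors that bind DNA through zinc fingers, and most carry a pocket for a small lipophilic ligand such as a steroid, thyroid hormone, retinoic acid, a bile acid or an oxysterol. Several of them pair with a retinoid X receptor, and ligand binding exchanges corepressors for coactivators that modify histones. In the liver they are known for the control of bile acid, cholesterol, lipid, glucose and drug metabolism, while receptors without a known natural ligand are called orphans.

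The labelled cell line was checked against cell type markers. The 9 hepatocyte markers, from the plasma protein FGB to albumin (ALB), had between 56.6 and 10010.7 FPKM, a fragment count scaled to transcript length and library size. The summed FPKM was 1.57 for 5 fibroblast markers, 1.1 for 4 endothelial markers and 149 for 3 cholangiocyte markers, of which KRT19 had 110 and SOX9 39.8. The leukocyte markers PTPRC and CD3E were at 0, CD14 had 2.53, and CD68 had 543 on a row that it shares with EIF4A1 and other genes. The part of other cell types in the values below was not tested. The expression table gives 2 FPKM columns, called runs 1 and 2 here, and neither the labels nor the headers say whether they are separate cultures, so their difference may be only technical. In a bulk lysate, fewer cells that express a gene and less RNA per cell cannot be told apart.

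In HepG2, 27 of 42 nuclear receptor genes (64.3%) had a mean FPKM of at least 1 and are called expressed, beside 54.4% of all genes (95% exact Clopper-Pearson interval 53.7 to 55%, for counting error only). The 12 genes under 0.1 FPKM are called silent, 28.6% of the receptors beside 34.8% of all genes, and 3 receptors lay between 0.1 and 1 FPKM beside 10.8%. These shares were near the background. The expressed receptors were of moderate level, with a median of 7.18 FPKM against 12.8 over all expressed genes, and 10 receptors reached 10 FPKM (23.8%) beside 31.3% of all genes. The 6 receptors that were 0 in both runs, RXRG, PGR, ESRRG, RORB, NR2E3 and NR2E1, compare with 20.8% of all genes.

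**Figure D1:**
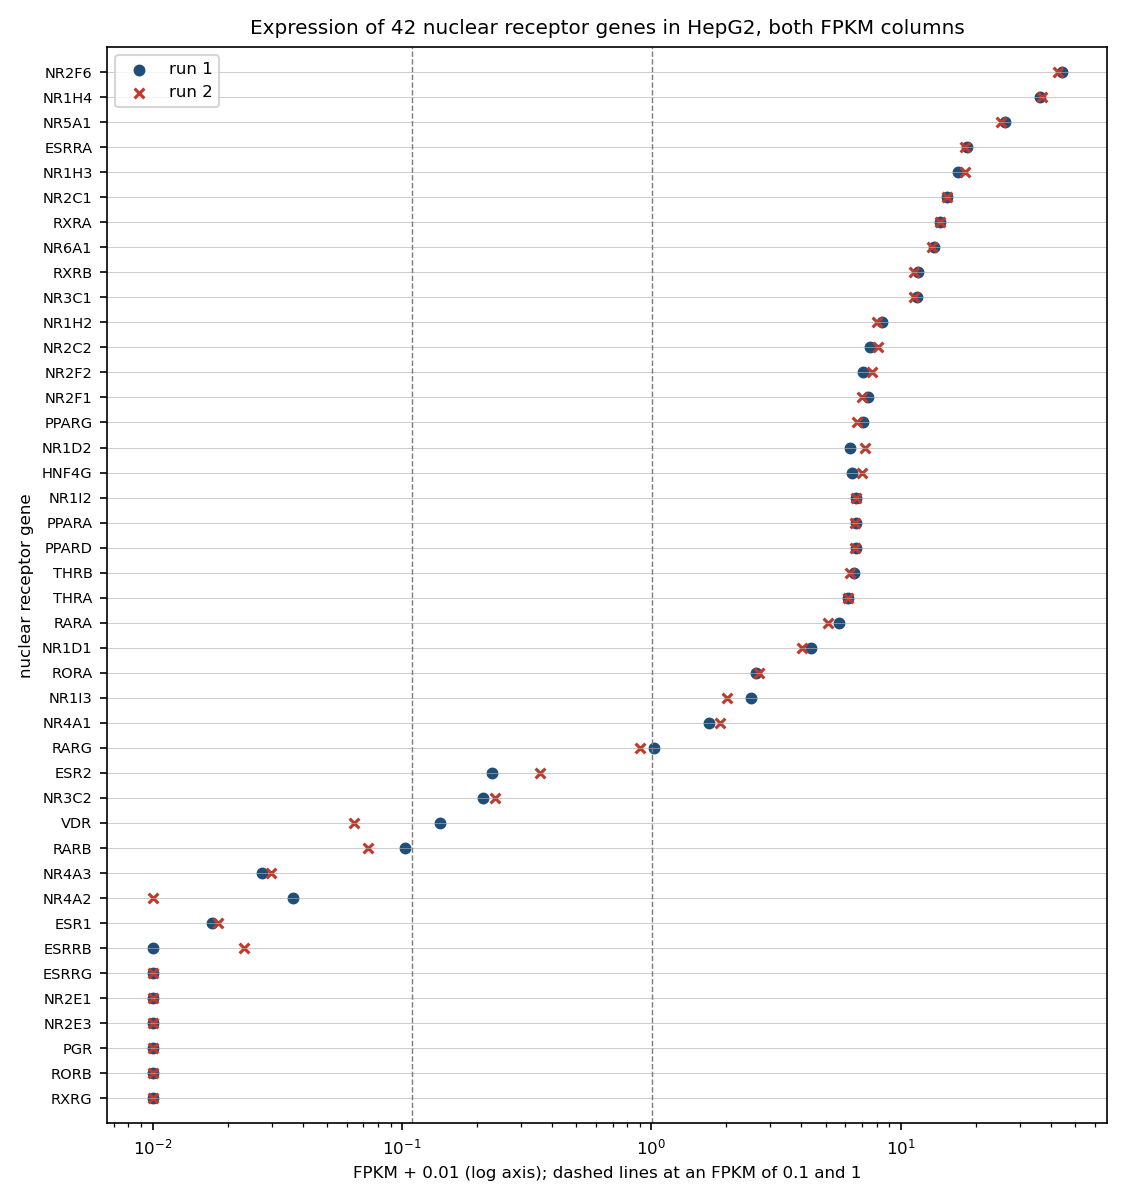
FPKM of 42 nuclear receptor genes in HepG2 (x axis, FPKM + 0.01, log scale; y axis, genes by falling mean), with a point for run 1 and a cross for run 2 of the 1 RNA-Seq sample. NR2F6 leads at a mean of 43.3, 27 genes lie right of the line at 1, 12 genes lie left of the line at 0.1, and the points at the left edge are listed at 0.

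The order of the levels was set against the range of the 2 runs. The 8 highest receptors, from NR2F6 through NR1H4, NR5A1, ESRRA, NR1H3, NR2C1 and RXRA to NR6A1, each lay above the next with no overlap of the runs, but the rows of ESRRA and NR1H3 also hold C11orf20 and MADD, so the ranks of these 2 belong to the rows and not to the receptors alone. From NR1H2 at a mean of 8.20 FPKM down to PPARD at 6.56, the 10 genes formed a chain in which every neighbouring pair overlapped, so the order of neighbours is not resolved. Genes farther apart in the chain could still be told apart by their runs, such as NR1H2 from PPARD and PPARG from PPARA. Of 26 neighbouring pairs among the expressed receptors 10 overlapped, and over all 41 neighbouring pairs 21 did. The higher run exceeded the lower by a median factor of 1.04 in the expressed receptors, the same as in all expressed genes, and the widest factor was 1.25 in NR1I3.

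Sequences of 6 promoters are shown because they stand for the contrasts described below. NR1H4 had, with PPARA, the most trivalent nucleosomes (H3K4me3, H3K9ac and H3K27ac together) near its start of the expressed receptors with a promoter in the table and coordinates of their own, ESRRG was the silent receptor with the most H3K27me3, NR2E3 was the only receptor with no mark, and the 3 retinoid X receptors belong to 1 subfamily with different expression. They are RefSeq promoters of build GRCh38.p14, 250 bases before and 50 after the annotated start, 5′ to 3′ on the strand of the gene, with each CG dinucleotide in capitals. The histone marks are on hg19 coordinates, so distances of marks were not counted from these windows. A locus may hold several promoters, and whether a window lies at the listed start, where the marks were counted, was not checked.
NR1H4, chr12:100503110-100503409, plus strand: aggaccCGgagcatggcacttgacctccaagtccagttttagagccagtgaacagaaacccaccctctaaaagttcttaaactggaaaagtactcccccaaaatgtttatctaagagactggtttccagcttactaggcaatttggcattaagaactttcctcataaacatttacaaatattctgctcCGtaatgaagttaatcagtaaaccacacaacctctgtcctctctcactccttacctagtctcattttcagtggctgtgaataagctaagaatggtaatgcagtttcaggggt
ESRRG, chr1:217137653-217137952, minus strand: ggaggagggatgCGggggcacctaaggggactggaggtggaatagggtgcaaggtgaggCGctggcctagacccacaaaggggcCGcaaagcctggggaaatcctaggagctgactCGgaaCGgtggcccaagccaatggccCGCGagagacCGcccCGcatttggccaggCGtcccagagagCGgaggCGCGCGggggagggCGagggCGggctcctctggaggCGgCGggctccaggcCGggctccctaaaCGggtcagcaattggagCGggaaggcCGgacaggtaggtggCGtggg
NR2E3, chr15:71810304-71810603, plus strand: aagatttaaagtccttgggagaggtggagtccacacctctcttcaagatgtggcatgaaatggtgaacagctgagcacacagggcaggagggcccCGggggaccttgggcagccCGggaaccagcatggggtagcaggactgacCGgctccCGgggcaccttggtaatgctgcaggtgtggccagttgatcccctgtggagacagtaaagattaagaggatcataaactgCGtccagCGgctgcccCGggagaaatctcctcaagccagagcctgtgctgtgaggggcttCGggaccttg
RXRA, chr9:134326205-134326504, plus strand: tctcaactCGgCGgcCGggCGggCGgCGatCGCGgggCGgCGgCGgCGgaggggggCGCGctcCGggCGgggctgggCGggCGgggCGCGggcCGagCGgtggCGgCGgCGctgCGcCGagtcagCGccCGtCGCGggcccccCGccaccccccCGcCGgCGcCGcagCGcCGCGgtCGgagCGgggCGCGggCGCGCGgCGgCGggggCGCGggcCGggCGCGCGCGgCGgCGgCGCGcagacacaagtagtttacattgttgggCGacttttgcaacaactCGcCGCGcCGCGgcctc
RXRB, chr6:33200804-33201103, minus strand: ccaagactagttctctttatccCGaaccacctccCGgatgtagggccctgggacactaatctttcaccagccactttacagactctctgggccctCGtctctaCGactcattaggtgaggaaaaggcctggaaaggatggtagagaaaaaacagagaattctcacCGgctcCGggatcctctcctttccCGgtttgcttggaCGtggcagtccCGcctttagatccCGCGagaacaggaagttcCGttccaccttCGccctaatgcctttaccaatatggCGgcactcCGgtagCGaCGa
RXRG, chr1:165445077-165445376, minus strand: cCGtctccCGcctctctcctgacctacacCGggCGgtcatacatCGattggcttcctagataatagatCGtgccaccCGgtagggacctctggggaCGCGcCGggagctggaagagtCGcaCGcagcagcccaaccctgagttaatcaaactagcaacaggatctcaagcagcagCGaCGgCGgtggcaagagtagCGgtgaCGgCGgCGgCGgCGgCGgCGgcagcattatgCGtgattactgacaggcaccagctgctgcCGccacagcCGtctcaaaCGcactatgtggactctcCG

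The window shown for NR1H4 held 2 CG dinucleotides in 300 bases, and the gene was the second highest of the receptors. Whether its RNA or its trivalent nucleosomes belong to this promoter was not tested. RXRA held 65 and RXRB 17, and both were expressed, whereas RXRG held 28 and was 0 in both runs. ESRRG held 23 and NR2E3 held 8, and both were silent. The observed number of CG dinucleotides divided by the number that the base composition gives, called the CpG ratio, was 0.158 for NR1H4, 0.688 for ESRRG, 0.318 for NR2E3, 1.25 for RXRA, 0.792 for RXRB and 0.972 for RXRG. Within the RXR subfamily the CpG ratio therefore did not follow the expression class.

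Of 42 receptors 38 had a promoter in the table and VDR, NR4A2, HNF4G and NR2F6 were not matched. The 38 had a median CpG ratio of 0.783, beside 0.579 for all 35116 promoters and 0.737 for protein-coding ones. The 25 expressed receptors had a median of 0.811, beside 0.845 for all expressed genes, and 17 of 25 (68.0%) had a ratio of at least 0.6, beside 83.0%. Among the metabolite and drug sensors, NR1H3 (0.105), NR1H4 (0.158), NR1I3 (0.164) and NR1I2 (0.329) were at the low end of the expressed receptors. NR1H2, also a sensor, stood apart from them at 0.895. The low end was not particular to sensors, since NR4A1 had 0.235. RORA had the lowest ratio, 0.0780, with 1 CG dinucleotide. The 10 silent receptors had a median of 0.597, beside 0.364 for all silent genes, and 5 of 10 (50%) reached 0.6, beside 34.6%. NR4A3 at 1.04, RXRG, NR2E1 at 0.806, RORB at 0.774 and ESRRG were the silent receptors above this limit.

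The letters AGGTCA, the core motif that many nuclear receptors bind, were searched on both strands with overlaps allowed. They were present in 5 of 38 receptor promoters (13.2%), those of NR1H3, NR1H4, RARA, RXRG and PPARG, beside 13.8% of all promoters of the same length. The share was near that of all promoters, while protein-coding promoters had 11.9%. In the expressed receptors it was 4 of 25 (16%), beside 9.73% of expressed genes. In the silent ones it was 1 of 10 (10%), beside 14.4% of silent genes. These counts are small, and a match describes letters only.

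**Figure D2:**
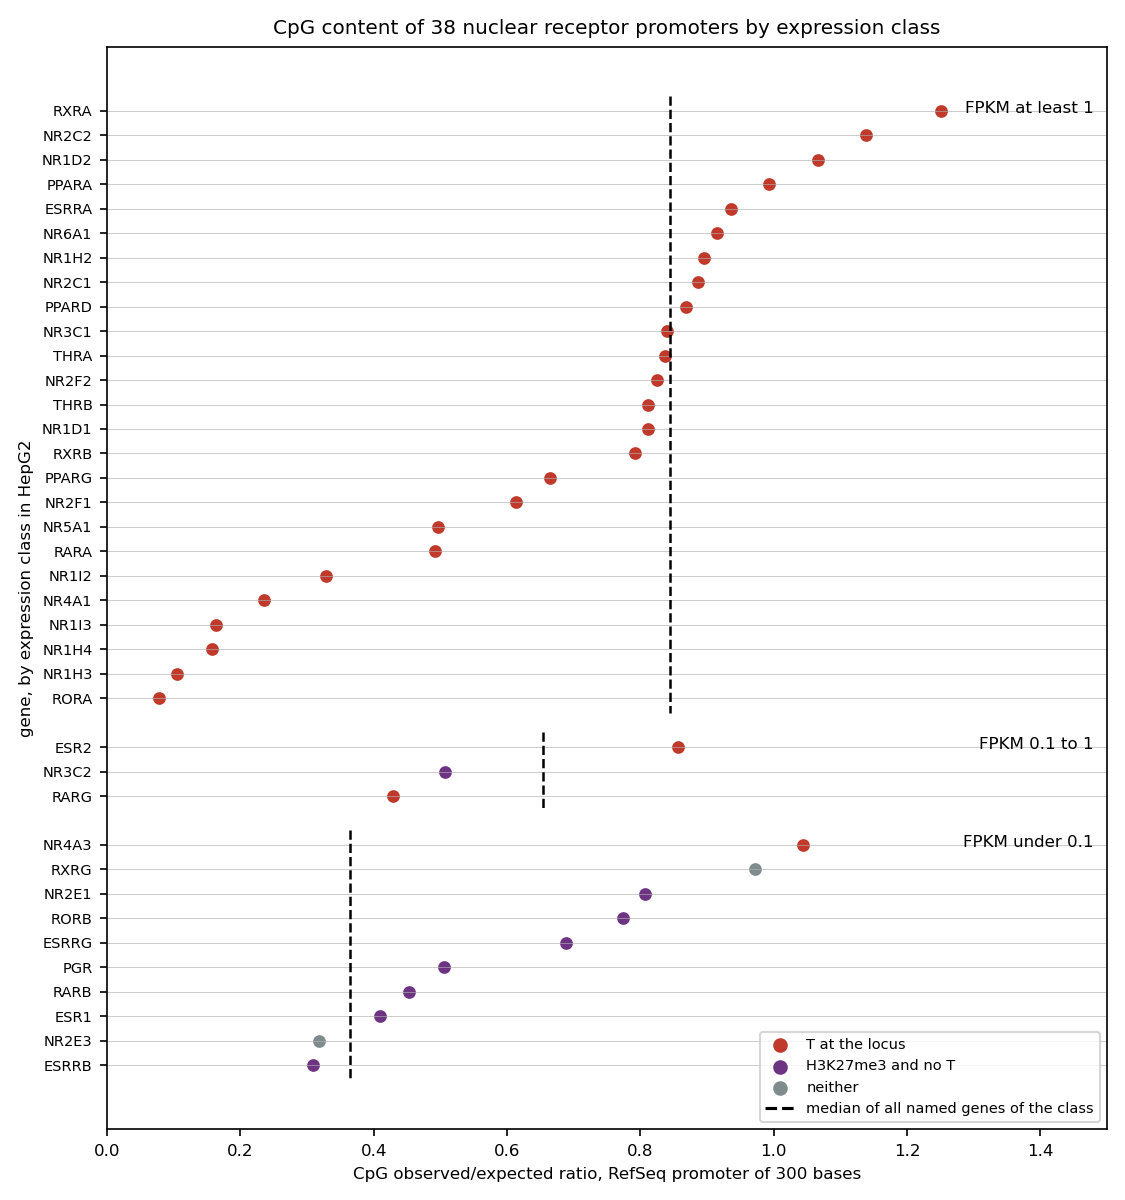
CpG ratio (x axis) of the 38 receptor promoters by gene (y axis), in 3 blocks for FPKM of at least 1, 0.1 to 1 and under 0.1, coloured by the marks at the locus, with dashed lines at the medians of all genes of each class (0.845, 0.654 and 0.364). The expressed receptors spread from 0.0780 to 1.25, and most silent receptors lie right of the line of their class.

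Among the sensors of oxysterols, bile acids and foreign compounds, all 5 were expressed. NR1H4, the bile acid receptor FXR, had 36.2 and 36.8 FPKM in runs 1 and 2. NR1H3, the oxysterol receptor LXRα, had 16.9 and 18.1 on a row that also holds MADD, so its own level cannot be read, and NR1H2, the related LXRβ, had 8.41 and 7.99. The runs of these 3 genes did not overlap. NR1I2, the pregnane X receptor, had 6.58 and 6.60 FPKM, and NR1I3, the constitutive androstane receptor, had 2.50 and 2.0. Both of these regulate genes of drug metabolism, and their runs did not overlap.

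The retinoid receptors spanned all 3 classes. RXRA had 14.3 and 14.4 FPKM, RXRB had 11.7 and 11.3, and RXRG was 0 in both runs, so that 2 of these 3 common partners of other receptors were expressed. RARA, a receptor of retinoic acid, had 5.65 and 5.09 FPKM. RARG lay at the limit, with 1.02 in run 1 and 0.888 in run 2, and RARB was silent at 0.0933 and 0.0632. The 3 RARs did not overlap each other.

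The PPARs, fatty acid sensors, were all expressed at nearly the same level. PPARG, known from fat cells, had 7.03 and 6.68 FPKM, PPARA, a regulator of fatty acid oxidation in liver, had 6.62 and 6.57, and PPARD had 6.58 and 6.55. PPARA and PPARD overlapped, and PPARG lay above both. The thyroid hormone receptors THRA (6.11 and 6.15) and THRB (6.51 and 6.28) were expressed and did not overlap, whereas VDR, the vitamin D receptor, had 0.132 and 0.0542 FPKM, the widest ratio between the runs of the genes above 0 in both.

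Of the 5 steroid receptors listed, only NR3C1, the glucocorticoid receptor, was expressed, with 11.6 and 11.3 FPKM. The estrogen receptor ESR2 had 0.219 and 0.349, and the mineralocorticoid receptor NR3C2 had 0.201 and 0.227. ESR1 had 0.00737 and 0.00833 FPKM and the progesterone receptor PGR was listed at 0 in both runs. The estrogen-related receptors, which act without a hormone, divided likewise. ESRRA, a regulator of mitochondrial genes, had 18.4 and 18.2 FPKM on a row shared with C11orf20, ESRRB had 0 and 0.0133, and ESRRG was 0 in both.

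The REV-ERB and ROR receptors act on the circadian clock. NR1D2 (REV-ERBβ) had 6.27 and 7.18 FPKM and NR1D1 (REV-ERBα) 4.37 and 4.01. RORA had 2.62 and 2.68, and RORB was 0 in both runs. Of the NR4A receptors, whose genes are rapidly induced by stimuli, NR4A1 had 1.69 and 1.87 FPKM, NR4A2 had 0.0264 and 0, and NR4A3 had 0.0175 and 0.0199.

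The NR2 orphans held the highest receptor, NR2F6, with 44.1 and 42.6 FPKM. Its relatives NR2F1 and NR2F2, the COUP transcription factors, had 7.36 and 6.99, and 7.02 and 7.63, and overlapped each other. NR2C1 (TR2) had 15.4 and 15.3 FPKM, NR2C2 (TR4) had 7.51 and 8.13, and HNF4G had 6.34 and 7.01. NR2C2 is also listed on the opposite strand of the same locus at 43.0 and 41.8, a row that was not used because the gene is annotated on the plus strand, and THRB, RORA and PGR are likewise listed on both strands. NR2E1, known from neural stem cells, and NR2E3, known from photoreceptors, were 0 in both runs. NR5A1, the steroidogenic factor known from adrenal gland and gonad, had 26.2 and 25.3 FPKM, and its neighbour on chromosome 9, NR6A1, the germ cell nuclear factor, had 13.6 and 13.4.

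The genes that work with the receptors were read from lists of textbook partners and targets. Of 25 coregulator genes 23 were expressed (92%), beside 54.4% of all genes, and their median was 12.1 FPKM. PRMT1, a histone methyltransferase, had 104 on a row shared with C19orf76, the demethylase KDM1A had 41.7 and the corepressor NRIP1 had 31.6, while NSD1 was silent at 0.0819. Of 48 target genes all but SLC51A and SLC51B were found, and 33 of these 46 were expressed (71.7%, beside the same 54.4%), with a median of 3.25 FPKM, led by FABP1 at 267, XBP1 at 192 and CCND1 at 86.8. Of 5 bile acid receptor targets found, 1 was expressed (20%, beside the same 54.4%). The bile salt pump ABCB11 (0.0611) and FGF19 (0.0621) were silent, while NR1H4 had 36.5. The lists do not separate targets that a receptor induces from those that it represses. Whether the targets followed their receptors was not tested. The other silent targets were the sterol transporter ABCG1 (0.0288), the glucocorticoid target ZBTB16 (0.0136) and the clock gene BHLHE41 (0.0620).

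Nucleosomes carrying H3K4me3, H3K9ac and H3K27ac together, the trivalent mark "T", were counted next. They are known from active promoters, "A" stands for H3K4me3 alone and "D" for H3K4me3/H3K9ac. The peak lists give no read counts, so the depth behind a mark is unknown and a position without a mark is one where none was called. Within 2 kb of the listed start of the locus, 18 of 42 receptors (42.9%) had at least 1 "T", beside 43.2% of all genes (42.5 to 43.8%), and 14 of 42 (33.3%) had at least 3, beside 27.8%. Both shares were near the background. NR2F6, NR1H3 and NR6A1 had 7 "T" each there, although that of NR1H3 is the shared start of a locus with MADD, DDB2 and ACP2. NR1H4, RXRB and PPARA had 5 each. The locus of RXRB is shared with a row of HSD17B8 and SLC39A7 at 96.3 FPKM. Of its 5 "T", 4 lay upstream, outside that locus, in a stretch at -1.92 to -1.11 kb, so they cannot be assigned to RXRB alone. RXRA, PPARG, HNF4G and NR2C1 had 4 each.

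Of the 16 expressed receptors that share neither row nor locus with another gene, 11 (68.8%) had a "T" within 2 kb of the listed start, beside 84.6% of such genes, and 9 (56.3%) had at least 3, beside 56.2%. In these 16, 33 of 42 "T" lay downstream of the start (78.6%) and 9 upstream, near the 76.5% downstream in all 6372 such genes. The 5 without were NR1H2, RARA, NR3C1, NR4A1 and NR5A1, and all 5 had their nearest "T" downstream, at 3.29, 7.81, 29.95, 13.92 and 2.86 kb from the listed start, the outermost coordinate of a locus that may hold several transcripts. NR3C1 had 8 "T" in 1 stretch at chr5:142782009-142785409, 29.7 to 33.0 kb inside the locus, and a single H3K9ac/H3K9me3 nucleosome at the listed start. RARA had 4 "T" at 7.81 to 9.74 kb and 5 more at 32.2 to 33.8 kb. THRB, with no mark within 2 kb, had 7 "T" at chr3:24535339-24537534, 10.9 to 12.9 kb inside.

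**Figure D3:**
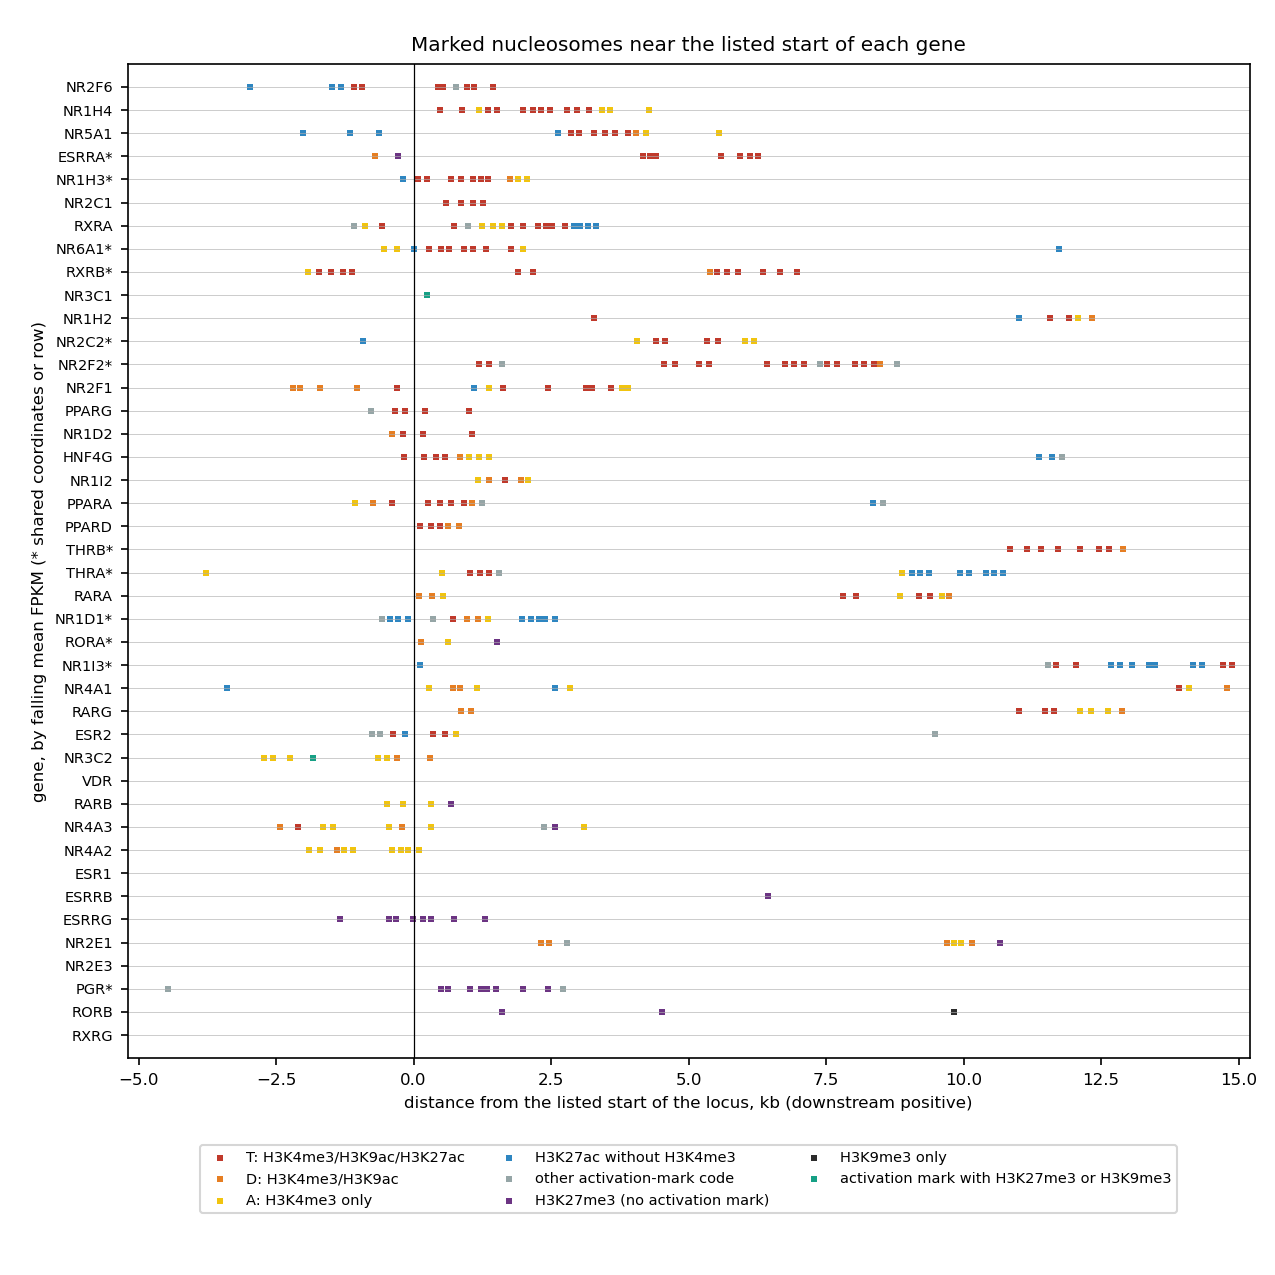
Marked nucleosomes of each receptor gene (y axis, by falling mean FPKM, asterisk for shared coordinates or row) from 5 kb before to 15 kb after the listed start (x axis, kb, downstream positive), coloured by combination of marks. Trivalent nucleosomes fill the upper rows, mostly downstream of the start, while ESRRG and PGR show 8 and 7 H3K27me3 nucleosomes and NR4A2 shows 8 "A" within 2 kb.

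Over the locus and 10 kb on either side, 31 of 42 receptors (73.8%) had a "T", beside 64.2% of all genes. All 27 expressed receptors had one, beside 94.9% of all expressed genes, so the count was near its background. Of the silent receptors 2 of 12 did, beside 20.3%, and these were NR4A2 and NR4A3 with 1 each. In the expressed receptors the numbers ran from 1 in NR1I2 and 3 in NR1H2, PPARD, NR1D2 and NR4A1 to 17 in the shared locus of NR1H3. NR1H4 had 12, of which 11 formed a stretch with 4 "A" at chr12:100867704-100871659, 0.48 to 4.29 kb downstream of the start. The 14 "T" of NR1I3 lay in a stretch 11.5 to 16.3 kb from its start. Most of them, at 14.7 to 16.3 kb, lay past the end of its locus of 12.2 kb. TOMM40L, on the opposite strand, shares that locus and starts at that end. THRA and NR1D1 overlap on opposite strands and share all 33 marked nucleosomes, 7 of them "T", and NR5A1 and NR6A1 share 9, of which 3 are "T".

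All marks were then counted. The receptors had 745 distinct marked positions of 203848 in the genome. "T" made up 28.6% of them, beside 21.0% of the marked positions of the genome, H3K27ac alone 21.3% beside 19.9%, "A" 13.8% beside 11.5%, H3K27me3 alone 10.6% beside 12.2%, and H3K9me3 alone 7.52% beside 16.4%. Since only gene loci were counted, the comparison with the whole genome also compares genes with the space between them. The median number of marked positions per receptor was 16, with 22 in the expressed and 10.5 in the silent receptors, beside 10, 13 and 3 for all genes of these classes. The median locus length was 60.0 kb for the receptors and 37.1 kb for all genes. It was 48.5 kb in the expressed receptors, beside 46.4 kb in all expressed genes. In the silent receptors it was 83.3 kb, beside 21.0 kb in all silent genes, so the counts of the silent class compare loci of unlike length.

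**Figure D4:**
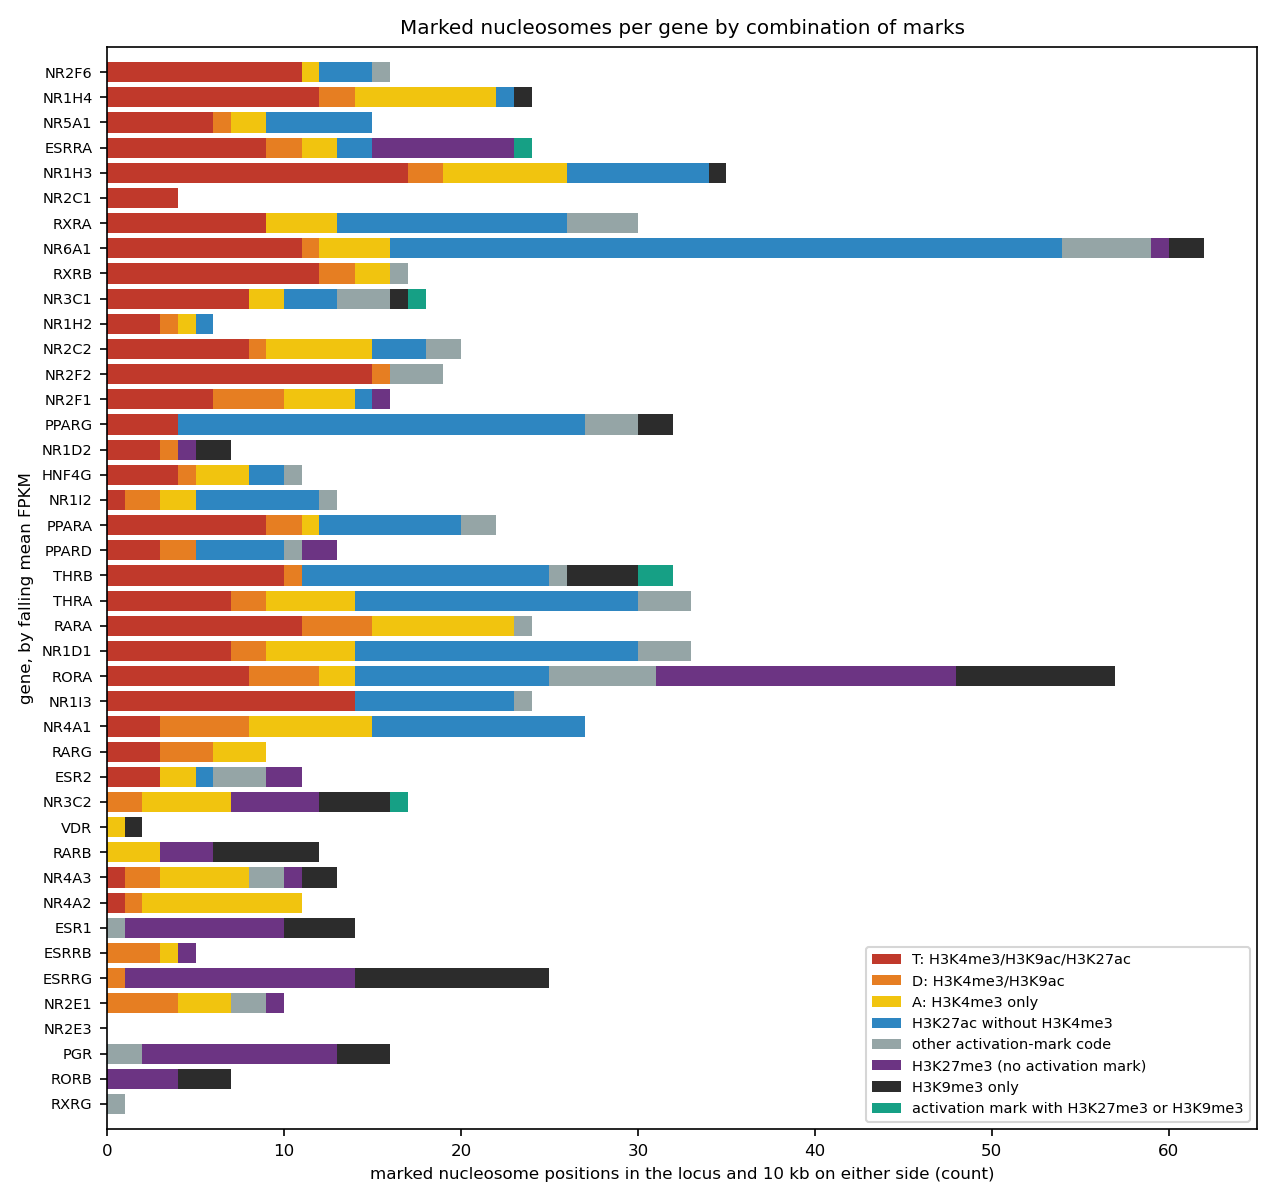
Number of marked nucleosome positions per receptor gene (x axis) in the locus and 10 kb on either side, by gene in order of falling mean FPKM (y axis), stacked by combination of marks. NR6A1 has 62 and RORA 57, NR2E3 has 0, and H3K27me3 makes up 13 of 25 positions in ESRRG and 11 of 16 in PGR.

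H3K27ac without H3K4me3 is known as a state of enhancers. In the receptors it was alone or with H3K9ac, apart from 1 position in THRB that also carried H3K9me3. H3K27ac without H3K4me3 was present in 22 of 27 expressed receptors (81.5%), beside 62.8% of all expressed genes. It was present in 0 of 12 silent receptors, beside 17.9%. At least 10 such nucleosomes were counted in 8 of 27 expressed receptors (29.6%), beside 11.8%. In loci of at least 100 kb the counts were 5 of 9, beside 30.4%, and without shared coordinates 3 of 16, beside 8.95%. The 8 were NR6A1 with 38, PPARG with 23, THRA and NR1D1 with the same 16, THRB with 15, RXRA with 13, NR4A1 with 12 and RORA with 11. The limit of 10 nucleosomes, and those of 9, 7 and 4 used below, were chosen after the values were seen. Those of 9, 7 and 4 are the counts of ESR1, PGR and NR4A3 themselves, so these receptors pass by construction.

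Many of these nucleosomes lay in compact stretches away from the start. PPARG held 19 in a row at chr3:12446004-12451739, 116.7 to 122.3 kb downstream of the listed start. NR6A1 held 10 at chr9:127328989-127331944, 201.9 to 204.7 kb from its start, and 6 of its 38 are those it shares with NR5A1. NR1I2 had 1 "T" but 7 H3K27ac nucleosomes at chr3:119514301-119515869, 15 to 16.5 kb inside. NR4A1 had 9 just past the end of its locus at chr12:52454711-52457074. RXRA had 6 at chr9:137256159-137257499, 37.9 to 39.1 kb inside, and PPARA had 6 at chr22:46566759-46567994. No annotation of hg19 was used here, so exons and introns are not given for these stretches.

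**Figure D5:**
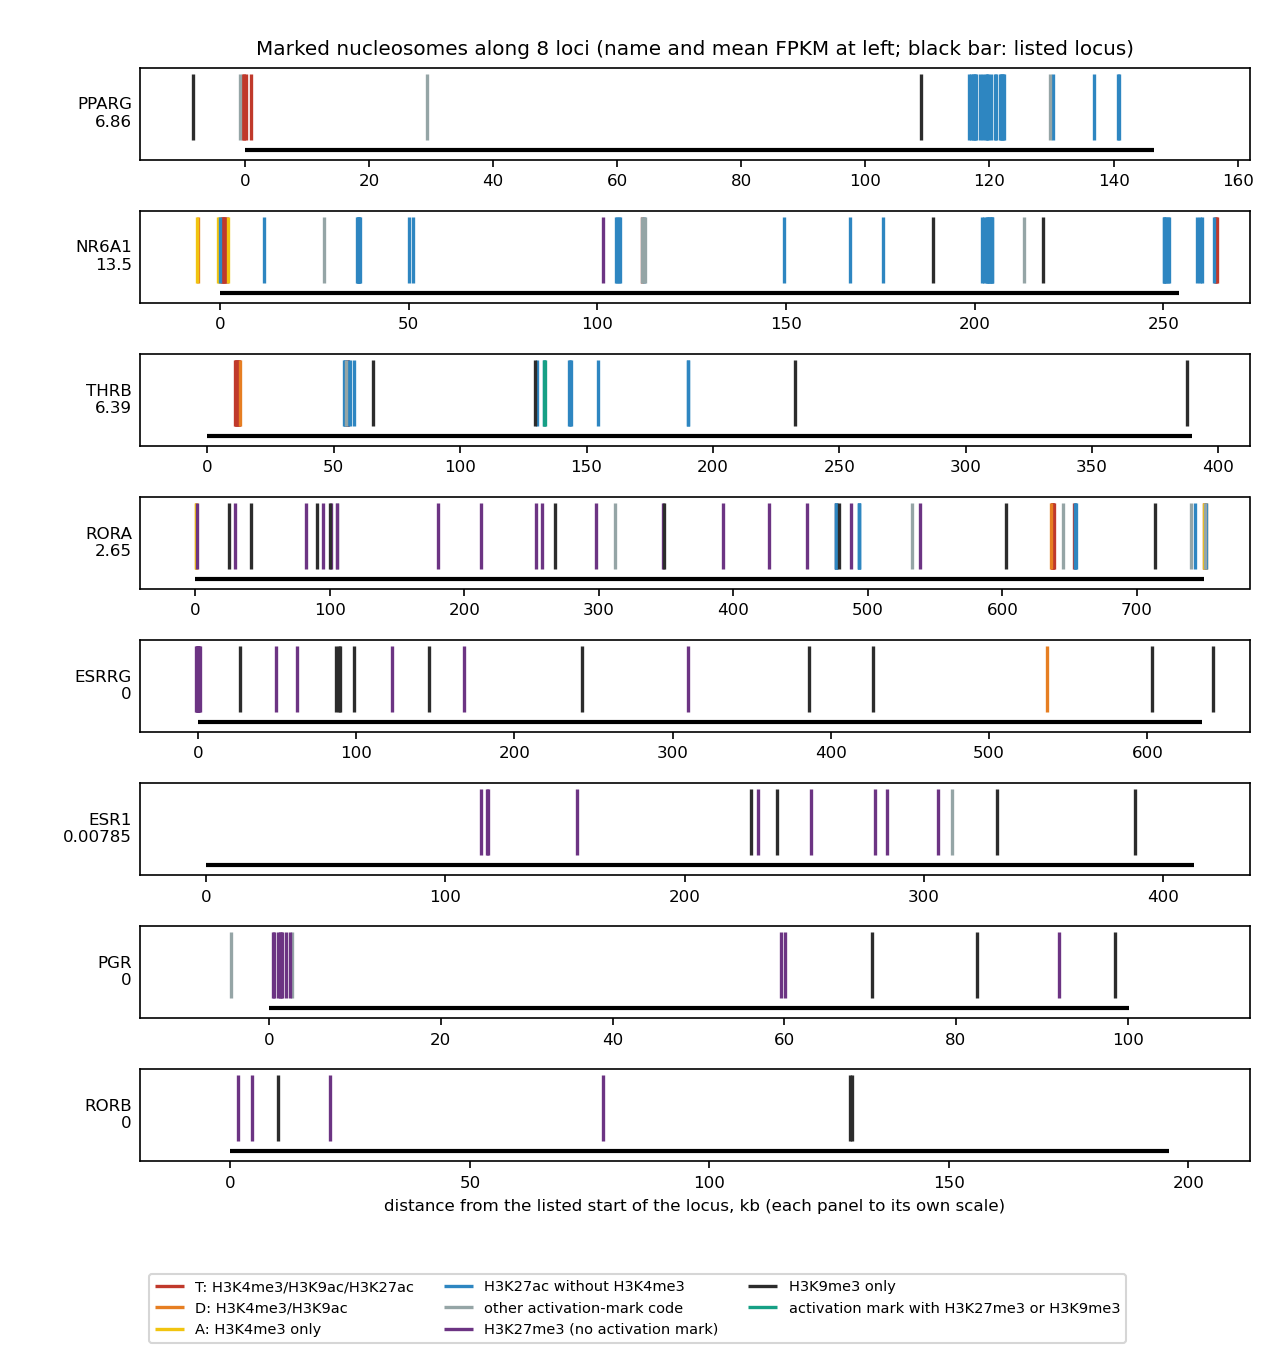
Marked nucleosomes along 8 receptor loci (x axis, kb from the listed start, each panel to its own scale; black bar, listed locus; mean FPKM under each name). PPARG, NR6A1 and THRB show blocks of H3K27ac without H3K4me3 far from the start, RORA (2.65 FPKM) carries H3K27me3 from 1.52 to 538.9 kb and most of its "T" beyond, and the silent ESRRG, ESR1, PGR and RORB carry H3K27me3 and H3K9me3 with no "T".

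H3K27me3, the mark of Polycomb repression, was present at 16 of 42 receptor loci (38.1%), beside 31.1% of all genes, and at 8 of 12 silent receptors (66.7%), beside 44.9%. Longer loci hold more of it in all genes. In silent loci of at least 100 kb it was present in 6 of 6 receptors, beside 76.4%, and in shorter ones in 2 of 6, beside 35.6%. Its density was 2.07 nucleosomes per 100 kb in the silent receptors and 1.25 in all silent genes. Over the 11 silent receptors with coordinates of their own, all but PGR, it was 1.63, beside 1.53 in such silent genes, a smaller difference. The locus of PGR is shared with its own listing on the other strand. At least 9 nucleosomes were found at 3 of 12 silent receptors (25%), ESRRG with 13, PGR with 11 and ESR1 with 9, beside 3.07%, and in long loci at 3 of 6, beside 13.2%.

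In ESRRG and PGR the mark lay mainly at the start. ESRRG had 8 H3K27me3 nucleosomes at chr1:217309724-217312504, at -1.33 to 1.30 kb from the start. In PGR 8 of 9 marked nucleosomes at chr11:100997759-101000119, from 0.50 to 2.71 kb downstream, carried it, of which 7 lay within 2 kb and 1 also carried H3K9me3. At least 7 within 2 kb were counted in these 2 of 12 silent receptors (16.7%), beside 0.0917%, or 7 of 7630 silent genes. These 7 genes include ESRRG and PGR, and the limit is the count of PGR, so the contrast describes the 2 genes only. ESR1 had its 9 from 115.1 to 305.8 kb inside its locus of 413 kb, 2 of them at 117.3 to 117.7 kb. None lay within 2 kb of the listed start, which is the outermost coordinate. Whether any lay at another start inside the locus was not tested.

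Among the expressed receptors 6 of 27 (22.2%) had H3K27me3 at the locus, beside 20.4%, and RORA and ESRRA had the most of these. RORA had 17, spread from 1.52 to 538.9 kb of a locus of 750 kb, and 7 of its 8 "T" lay farther from the start, at 636.5 to 749.9 kb. ESRRA had 9, of which 8 lay outside the locus, at -8.95 to -7.16 kb from the start, upstream, at chr11:64058844-64060779. Of those, 1 also carried H3K4me3/H3K9ac. The same locus is listed for PRDX5 and TRMT112, so these nucleosomes cannot be assigned to ESRRA alone. NR3C2, at 0.214 FPKM, had 6 H3K27me3 nucleosomes, 1 of them with H3K4me3, beside 5 "A" and 2 "D". H3K9me3 was present at 16 of 42 loci (38.1%), beside 31.8%, and at 7 of 12 silent receptors, beside 35.8%, with the most, 11, in ESRRG. In silent loci of at least 100 kb it was present in 5 of 6 receptors, beside 76.5%, and in shorter ones in 2 of 6, beside 23.7%, so the gap was smaller within each length class.

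The silent receptors thus carried different marks. NR4A2 and NR4A3 had no "T" within 2 kb but 8 and 4 "A". At least 4 "A" and no "T" were found there in these 2 of 12 silent receptors, beside 0.773% of all silent genes. NR4A3 had 1 "T" at -2.10 kb, just outside the window, so its place in this count depends on the limit of 2 kb, while the nearest "T" of NR4A2 lay at -9.28 kb. The 8 "A" and 1 "D" of NR4A2 lay at chr2:157189109-157191265, at -1.90 to 0.11 kb from the start. RARB had 3 "A" and 1 H3K27me3 there, so that 3 of 12 had "A" and no "T", beside 7.64%. ESRRB had no mark near its start but 1 H3K27me3 at 6.45 kb and 1 "A" and 3 "D" 25.5 to 25.9 kb inside. NR2E1 had 2 "D" and 1 H3K9ac at 2.32 to 2.79 kb, 2 "A", 2 "D" and 1 H3K27me3 at 9.71 to 10.7 kb, and lone "A" and H3K9ac nucleosomes at -8.28 and 31.7 kb. RXRG had 1 H3K9ac nucleosome, VDR 1 "A" and 1 H3K9me3, and NR2E3 none. It was the 1 of 12 silent receptors with no mark at the locus (8.33%), beside 23.8% of all silent genes.

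Nucleosome spacing at the start was compared last. For receptors with coordinates of their own, the widest distance between neighbouring nucleosome midpoints centred within 500 bp of the listed start had a median of 410 bp in 16 expressed receptors, with a range of 220 to 935 bp, beside 409 bp in all such expressed genes. It was 308 bp in 11 silent receptors, with a range of 205 to 524 bp, beside 285 bp. The medians were near those of all genes, and the ranges of the expressed and silent receptors overlapped.

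At the loci of the coregulators "T" was present in 25 of 25, beside 64.2% of all genes and 94.9% of expressed ones, and H3K27me3 in 4 (16%), beside 31.1%. Of the 46 target genes found 28 had "T" (60.9%) and 15 had H3K27me3 (32.6%), both near the shares over all genes.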

How the data were processed

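The authors aligned reads to hg19 with BWA (MNase-Seq, ChIP-Seq), called nucleosomes with DANPOS, called peaks at these positions with NUCLIZE, and deposited coordinates only, with no heights or read counts. For RNA-Seq the submitters' processing notes name TopHat2 2.1.0, Bowtie, HOMER 4.7 and edgeR, and the authors deposited FPKM values in 2 columns, beside fold changes, p-values and q-values of their own comparison, which were not used. No read counts stand beside the FPKM. Marks were joined by nucleosome identifier, and a stretch is a run of marked positions at most 1 kb apart. Strand came from RefSeq, or from the order of locus numbering for 4 receptors. Where a symbol had several rows, the row on its strand was used, a choice made after the table was seen. The receptors and lists were chosen with earlier results of these data known. All receptors are named. Of the coregulators and targets, the 3 highest and all silent ones are. No test was possible with 1 sample per assay, and counting was tested on simulated data. Python 3.11.15, pandas 2.3.3, numpy 2.4.6, scipy 1.17.1 and matplotlib 3.10.9 were used.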

Additional observations from a re-analysis of the deposited data

How the results depend on the processing

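A count was taken as kept within a factor of 1.5, the median FPKM within 1 SD of its values in the 2 runs, and the CpG ratio when equal. By these limits 41 of 54 alternatives kept the value and 13 moved it. The 0 that reversed it tell nothing, because counts, medians and ratios of this kind have no direction. The limit on counts is wide: expressed receptors ranged from 16 to 30, those with "T" at the start from 12 to 23 and those with at least 3 from 8 to 18. The median FPKM of 6.26 became 6.19 with run 1 alone, 6.21 with run 2 alone, 6.35 with rows of a symbol summed, 6.64 over receptors above 0 in both runs, and the mean of log2(FPKM + 1), turned back into FPKM, was 3.48, or 1.18 with an offset of 0.01. With only the 30 receptors that share no row or coordinates, by construction fewer, the median FPKM was 3.57, 16 were expressed, 20 had "T" at the locus, and the median CpG ratio was 0.676. Silent receptors fell from 12 to 4 when a value above 0 in both runs was required, receptors with at least 3 "T" at the start from 14 to 8 within 1 kb, and the median of 16 marked positions to 10.5 without the flanking 10 kb. Taking the highest row of each symbol, an alternative added after the data were seen, changed only the level of NR2C2. No paired analysis was possible because each assay has 1 sample. There are no replicates, and marks below the authors' calling limits cannot be seen.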
